A study of Mus musculus with 9 samples.

Results

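This account follows 10 genes of the unfolded protein response and the integrated stress response through RNA-seq libraries of type 1 conventional dendritic cells (cDC1), which take up antigen and show it to cytotoxic T cells. The genes were taken as a fixed list of names: Ern1, Xbp1, Hspa5, Sdf2l1, Dnajb9, Herpud1, Eif2ak3, Atf4, Ddit3 and Trib3. They are 10 of the 53458 genes to which the deposited transcript values were summed, and together they have 38 annotated transcripts. The cells came from lymph nodes beside the pancreas of mice, and the libraries fell into 3 stages of the drained pancreas with 3 libraries each: Healthy, PanIN (pancreatic intraepithelial neoplasia, a lesion that comes before pancreatic cancer) and Tumor. The series title names KPC for all of them, a mouse model of pancreatic cancer driven by a Cre recombinase in the pancreas; the alleles and Cre driver of each group, the ages, any treatment and the way the cDC1 were isolated were not given in the sources used here. Nor do the labels tell whether each library stands for its own animal or for a pool. The p-values therefore measure spread among these libraries alone, and part of it may be technical.

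When unfolded proteins build up in the endoplasmic reticulum (ER), 3 membrane sensors respond. IRE1, encoded by Ern1, cuts a short intron out of Xbp1 mRNA in the cytosol, so that a strong transcription factor is made; ATF6 is cleaved and enters the nucleus; and PERK, encoded by Eif2ak3, phosphorylates the translation factor eIF2, which slows protein synthesis in general but favours translation of Atf4 mRNA. PERK shares that last step with kinases that sense amino acid shortage, viral RNA and heme shortage, and the shared pathway is called the integrated stress response. In mouse cDC1 the IRE1 and XBP1 arm is known to be active without infection, and loss of XBP1 in these cells lets IRE1 cut other mRNAs, a process called regulated IRE1-dependent decay (RIDD).

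The files limit what can be said of IRE1 activity, which the sequence around the unconventional intron shows. The intron is 26 bases long and lies within exon 4 of Xbp1, at chr11:5524282-5524307 on the plus strand of GRCm38, in the coding sequence. In the next lines the capitals mark the intron, and the second line is the same stretch after its removal.
Xbp1 unspliced: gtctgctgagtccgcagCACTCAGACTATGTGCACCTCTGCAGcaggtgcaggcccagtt
Xbp1 spliced: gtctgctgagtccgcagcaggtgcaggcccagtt
Read from the start codon of the full-length transcript Xbp1-201, the open reading frame has 267 codons with the intron and 371 without it. Of the 4 annotated Xbp1 transcripts, 3 hold the unspliced sequence and 0 hold the spliced junction, so the deposited values per transcript do not separate spliced from unspliced Xbp1 mRNA. Likewise the phosphorylation of PERK and eIF2, the cleavage of ATF6 and the translation of Atf4 leave no direct trace in these values.

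Libraries held 32150281 to 68934430 estimated counts, and levels are given as counts per 1000000 with TMM library factors (CPM) or, between genes, as transcripts per 1000000 (TPM), which divides by length. The genes that define cDC1 were present in every library, with 9 of 9 listed markers above 0 and summed levels of 3990 to 14600 CPM. The Healthy libraries stood apart from one another: Healthy 2 had the highest summed cDC1 markers and the lowest summed markers of mature, migratory dendritic cells, 983 CPM, against 6900 and 3370 CPM in the other Healthy libraries. Tumor 1 held more epithelial marker RNA than the rest, 86.6 CPM against 6.9 to 19.9 CPM in the other 8 libraries, and PanIN 2 more B cell marker RNA, 251 CPM against 26.8 to 69.7 CPM. In such bulk samples, fewer cells with a transcript and less of it per cell cannot be told apart.

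All 10 genes were measured and all 10 passed the filter on low counts, which kept 24133 genes. In TPM over the 9 libraries Hspa5 stood highest, at 317 ± 116 TPM (SD, n = 9), followed by Herpud1 at 137 ± 34.9 TPM and Sdf2l1 at 71.9 ± 19.1 TPM. Atf4 had 52.4 ± 13.2 TPM and Xbp1 36.7 ± 15.5 TPM. Below them came Dnajb9 at 15.2 ± 3.8 TPM, Ddit3 at 11.7 ± 3.69 TPM, Eif2ak3 at 7.71 ± 1.89 TPM and Ern1 at 3.43 ± 1.47 TPM. Trib3 was the lowest, at 0.381 ± 0.196 TPM. This order held in all 9 libraries between neighbours, except that Ddit3 lay above Dnajb9 in 1 library and Eif2ak3 above Ddit3 in 1. The ranges over libraries were apart for Hspa5 and Herpud1, for Xbp1 and Dnajb9 and for Ern1 and Trib3, and overlapped for the other 6 pairs of neighbours.

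**Figure D1:**
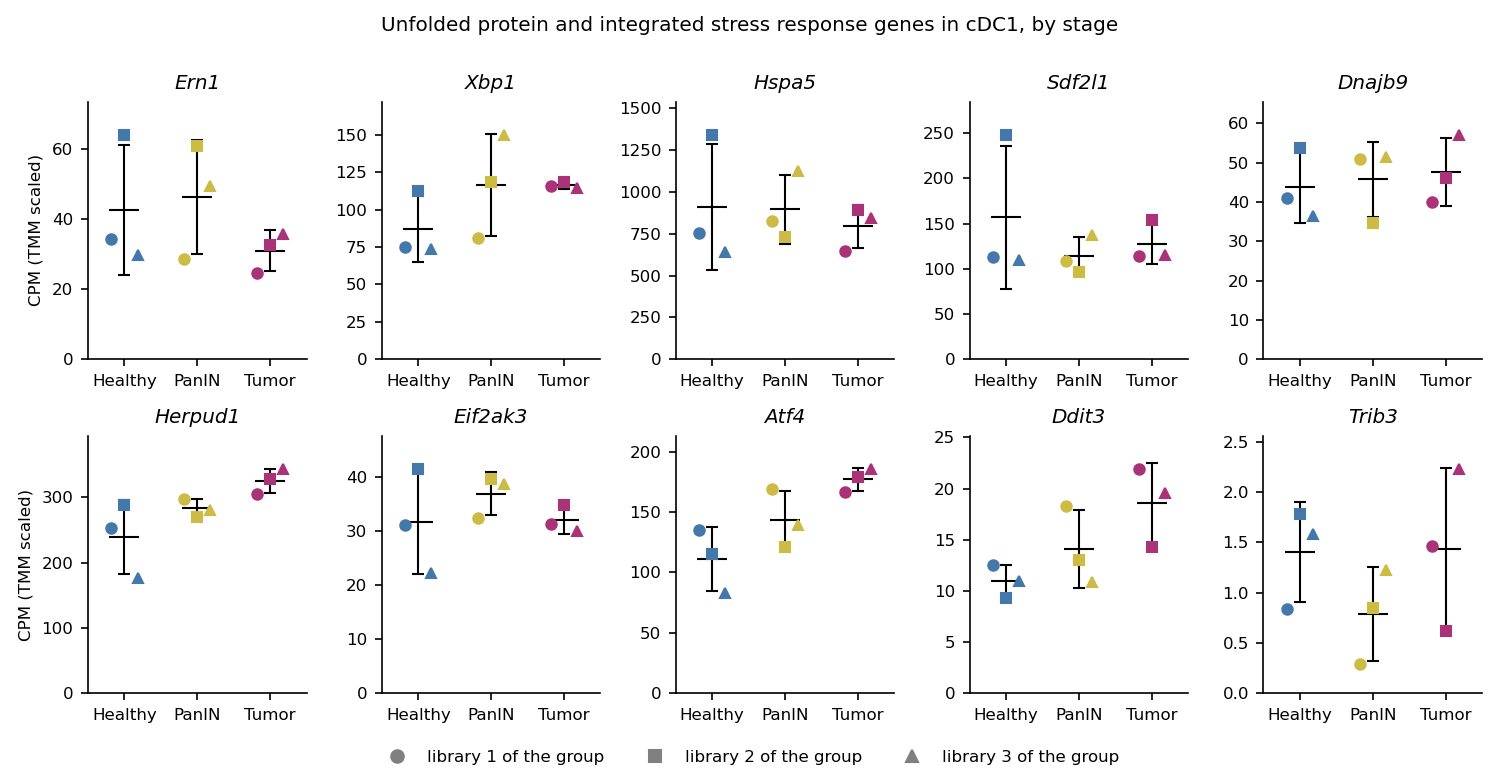
CPM with TMM factors (vertical axes from 0) of the 10 genes in each library of Healthy, PanIN and Tumor nodes; each symbol is a library, the horizontal bar is the mean and the whiskers are the SD (n = 3). Atf4, Ddit3, Herpud1 and Xbp1 are higher in each of the 3 Tumor libraries than in any Healthy library, whereas the square of Healthy 2 stands above the other 8 libraries for Hspa5, Sdf2l1, Ern1 and Eif2ak3.

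The main question was whether these genes differed by stage. By the quasi-likelihood test of edgeR, adjusted by Benjamini-Hochberg over all 24133 genes, 0 of the 10 were called in Tumor against Healthy, where 0.0249% of all genes tested were called; 0 in PanIN against Healthy, where 0% were called; 0 in Tumor against PanIN, where 0.0124% were called; and 0 in the test of any difference among stages, where 0.0207% were called. At an unadjusted p under 0.05, 2 genes were higher in Tumor than in Healthy, Atf4 and Ddit3, and 0 lower, where 6.82% of all genes were higher and 11% lower. At the same limit 0 of the 10 passed in PanIN against Healthy, beside 10.5% of all genes, 0 in Tumor against PanIN, beside 4.54%, and 1, Atf4, in the test of any difference, beside 13.4%. DESeq2 called many more genes, yet 0 of the 10: of all genes with an adjusted p it called 8.73% for Tumor over Healthy, 0.855% for PanIN over Healthy, 0.145% for Tumor over PanIN and 6.81% in the test of any difference. Limma-voom with sample weights called 0 of the 10 in Tumor against Healthy, beside 8.23% of all genes, and 0 in Tumor against PanIN, beside 0.0124%. It called 1, Xbp1, in PanIN against Healthy, beside 14.1%, and the same gene in the test of any difference, beside 13.5%.

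Tumor and Healthy libraries did not overlap for 4 of the 10 genes, all higher in Tumor: Atf4, Ddit3, Herpud1 and Xbp1. Of all genes tested, 9.02% lay apart in that direction and 9.06% in the other. The median log2 fold change of the 10 genes was 0.08 for Tumor over Healthy, 0.17 for PanIN over Healthy and 0.11 for Tumor over PanIN, beside medians of -0.11, -0.10 and -0.05 over all genes tested. In PanIN against Healthy 0 of the 10 lay apart, where 7.4% of all genes lay apart higher and 4.81% lower.

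**Figure D2:**
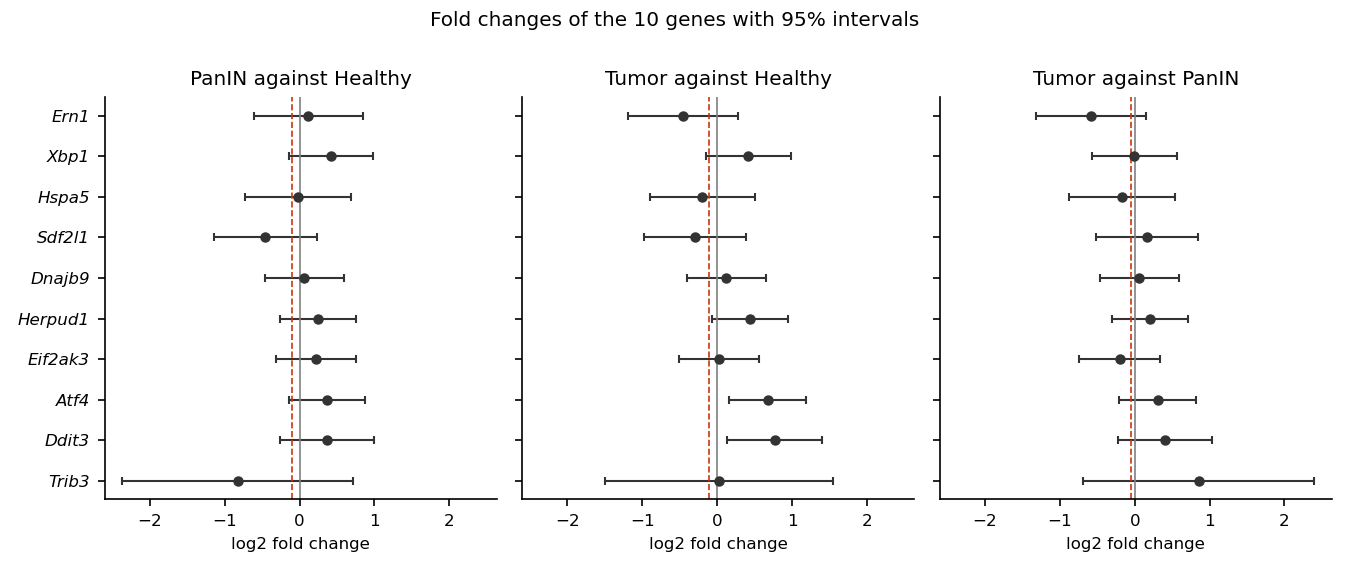
log2 fold changes of the 10 genes (points) with 95% intervals (bars) from the edgeR fit in PanIN against Healthy, Tumor against Healthy and Tumor against PanIN; positive values are higher in the stage named first, and the dashed line is the median of all 24133 genes tested. Only the intervals of Atf4 and Ddit3 in Tumor against Healthy lie wholly on one side of 0 before adjustment over genes.

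Among the sensors, Ern1 had 34.4, 63.8 and 29.6 CPM in Healthy, 28.5, 60.6 and 49.4 CPM in PanIN and 24.5, 32.6 and 35.8 CPM in Tumor. The 3 Tumor libraries lay within a narrow band near the lower end of both other groups, and the groups overlapped. For Ern1 the log2 fold change was -0.46 in Tumor against Healthy (SE 0.34, adjusted p = 0.526) and -0.58 in Tumor against PanIN (SE 0.34, adjusted p = 1). Without Healthy 2, the value in Tumor against Healthy was -0.05.

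Eif2ak3, the gene of PERK, had 31.1, 41.4 and 22.2 CPM in Healthy, 32.3, 39.6 and 38.6 CPM in PanIN and 31.2, 34.9 and 30.0 CPM in Tumor. Healthy 2 and Healthy 3 were the highest and the lowest of all libraries, so the Healthy range took in the other 7. For Eif2ak3 the log2 fold change was 0.02 in Tumor against Healthy (SE 0.25, 95% interval -0.51 to 0.56) and turned negative on log2(TPM + 1), at -0.19.

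Xbp1, the transcription factor downstream of IRE1, had 75.2, 112 and 73.7 CPM in Healthy, 81.4, 119 and 150 CPM in PanIN and 116, 119 and 114 CPM in Tumor. The Tumor libraries were close together and all above the highest Healthy library, by little, while PanIN spread from near the low Healthy libraries to the highest value of all. The log2 fold change was 0.42 in Tumor against Healthy (SE 0.26, 95% interval -0.15 to 0.98, adjusted p = 0.44) and 0.42 in PanIN against Healthy (SE 0.26, 95% interval -0.14 to 0.99, adjusted p = 0.613). In Tumor against PanIN it was -0.01 (SE 0.26). Limma-voom with sample weights called Xbp1 in PanIN against Healthy (log2 fold change 0.63, adjusted p = 0.0221, where the alternatives gave 0.0221 to 0.992). It gave Healthy 2 and Healthy 3 weights of 0.17 and 0.27 beside 4.32 for Healthy 1. PanIN 1 and PanIN 3 had weights of 0.79 and 1.17 beside 3.81 for PanIN 2.

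The scale mattered for Xbp1 in PanIN. In TPM summed over its transcripts, the Healthy libraries stood at 23.9, 27.7 and 23.9. The PanIN libraries stood at 28.3, 54.4 and 68.8 TPM and the Tumor libraries at 30.0, 31.6 and 41.7 TPM. In this sum PanIN and Healthy libraries did not overlap. For the full-length transcript Xbp1-201 alone they did. It had 18.1, 24.7 and 15.86 TPM in Healthy and 20.96, 28.71 and 39.02 TPM in PanIN, with PanIN 1 below Healthy 2. On log2(TPM + 0.1) the median over the 15708 genes with at least 1 TPM in 3 libraries also moved. That median was 0.34 for PanIN over Healthy and -0.38 for Tumor over PanIN, with 0.00 for Tumor over Healthy. On the same scale Xbp1 stood at 0.91 in PanIN against Healthy by limma-trend (adjusted p = 0.276) and at -0.47 in Tumor against PanIN (adjusted p = 0.551), each to be read beside that shift.

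The 4 annotated Xbp1 transcripts, all on chromosome 11, shared these counts unequally. Xbp1-201, the full-length coding transcript (chr11:5520659-5525893, 2129 bases), held 89.7%, 95.7% and 84.5% of Xbp1 counts in the Healthy libraries, 88.7%, 75.2% and 77.8% in those of PanIN and 91.5%, 91.4% and 84.4% in those of Tumor. PanIN 2 and PanIN 3 were the lowest of the 9 libraries, while PanIN 1 lay among the Healthy and Tumor libraries. The same libraries, which also had the highest Xbp1 TPM, held 35.2 and 24.4 CPM of summed neutrophil markers with 8 of 8 above 0, against 0.972 to 6.62 CPM in the other 7, and the part of neutrophils in these values was not tested. Xbp1-202, a retained-intron transcript that ends before exon 4, averaged 2.43% ± 2.80 (SD, n = 3 here and in the next averages) in Healthy, 7.81% ± 2.88 in PanIN and 4.89% ± 2.25 in Tumor. Xbp1-203, whose last exon runs on into the intron after exon 4, averaged 2.72% ± 0.713 in Healthy, 5.80% ± 3.01 in PanIN and 4.39% ± 1.55 in Tumor. Xbp1-202 was at 0.162% in Healthy 2 and at 9.48% and 9.46% in PanIN 2 and PanIN 3, the same libraries in which Xbp1-203 was highest, at 7.80% and 7.25%. Xbp1-204, a coding transcript with an alternative start, averaged 4.92% ± 4.83 in Healthy, 5.82% ± 1.56 in PanIN and 1.62% ± 0.726 in Tumor, with 10.5% in Healthy 3 alone.

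None of these shares passed a test. An exact permutation test of the F statistic over all 1680 ways to place the 9 libraries in 3 groups gave p = 0.164, 0.132, 0.243 and 0.25 for Xbp1-201, Xbp1-202, Xbp1-203 and Xbp1-204, each 0.25 after Benjamini-Hochberg adjustment over the 4; the smallest p it can give is 0.00357. In a transcript-level edgeR fit of 66598 transcripts, 0 of the 4 were called in any comparison. The lowest unadjusted p-values were those of Xbp1-204 in Tumor against PanIN, at -1.83 on the log2 scale (SE 0.75, adjusted p = 0.815), and of Xbp1-202 in PanIN against Healthy, at 2.30 (SE 1.01, adjusted p = 0.731). Reads shared between these overlapping transcripts are split by a model, so small shares are uncertain.

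**Figure D3:**
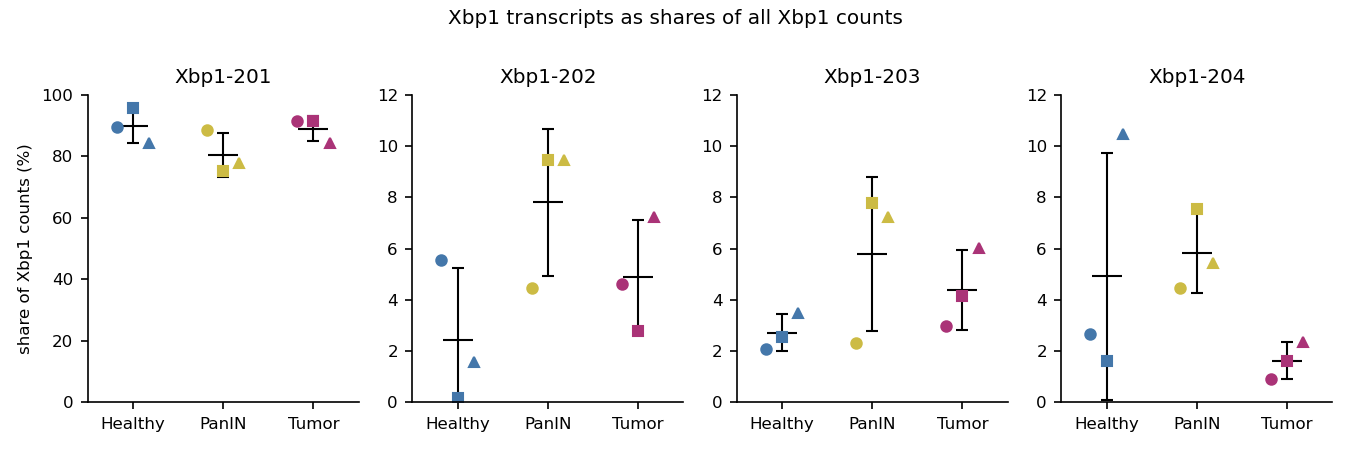
Share of all Xbp1 estimated counts (percent, vertical axes from 0; the axis of Xbp1-201 reaches 100 and the others 12) taken by each annotated transcript in the 9 libraries, with circles, squares and triangles for libraries 1, 2 and 3 of a stage, the mean as a bar and the SD as whiskers (n = 3). Xbp1-201 holds at least 75.2% in every library and is lowest in PanIN 2 and PanIN 3.

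The chaperone genes come next. Hspa5 encodes BiP, the main Hsp70 chaperone of the ER, which also holds the sensors inactive. Its promoter carries the ER stress response element (ERSE), the binding motif of ATF6 with NF-Y. In RefSeq's promoter table for GRCm38.p6, which matched 10 of the 10 genes, the motif, CCAAT and CCACG with 9 bases of any kind between them, was searched on both strands from 250 bases before to 50 after each start, and 0.119% of 32851 promoters hold it. Of the 10 genes, 1 had a match, Hspa5, at bases -65 to -47 from its start, shown in capitals within chr2:34772019-34772048 on the plus strand. That stretch is promoter by the RefSeq start and lies in exon 1 of the annotated transcript that begins furthest upstream.
Hspa5: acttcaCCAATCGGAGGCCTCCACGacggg

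Hspa5 had 753, 1338 and 640.2 CPM in Healthy, 828, 729 and 1126 CPM in PanIN and 646, 889 and 846 CPM in Tumor. Healthy 2 was the highest and Healthy 3 the lowest of the 9, and all groups overlapped. The log2 fold change of Hspa5 in Tumor against Healthy was -0.20 (SE 0.32, 95% interval -0.90 to 0.51) and was 0.19 without Healthy 2. In PanIN against Healthy it was -0.02 (SE 0.32, 95% interval -0.73 to 0.68), and 0.45 on log2(TPM + 1), where the median of all genes was 0.28.

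Sdf2l1 encodes an ER protein that works with BiP and its co-chaperones. It had 113, 248 and 110 CPM in Healthy, 108, 96.6 and 137 CPM in PanIN and 114, 153 and 115 CPM in Tumor. Healthy 2 was again far above the rest, and its other Healthy libraries lay within the range of Tumor and PanIN or just below. For Sdf2l1 the log2 fold change was -0.30 in Tumor against Healthy (SE 0.32) and -0.46 in PanIN against Healthy (SE 0.32, adjusted p = 0.664); without Healthy 2 they were 0.20 and 0.04. Dnajb9, the ER co-chaperone ERdj4 and a target of XBP1, lay between 34.7 and 57.0 CPM over the 9 libraries, the smallest ratio of highest to lowest among the 10. Its log2 fold change was 0.12 in Tumor against Healthy (SE 0.24, 95% interval -0.41 to 0.65), and -0.13 on log2(TPM + 1).

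Herpud1 encodes a membrane protein that organises ER-associated degradation, the export of misfolded proteins to the proteasome. It was the only gene of the 10 with motifs of both the ATF6 and the ATF4 branches in its promoter window. In capitals in its 150 bases before the start, chr8:94386279-94386428 on the plus strand, are a match to TGATGCAA on the minus strand, the core of the C/EBP-ATF response element bound by ATF4, at -112 to -105, and the ERSE-II element, ATTGG and CCACG with 1 base between them, at -52 to -42. Of all 32851 promoters 0.895% hold TGATGCAA on either strand and 0.0365% hold ERSE-II. Among the other 9 genes there was 0 match to these motifs, and TGACGTGG, the core of the XBP1-bound UPR element, matched 0 of the 10 windows and 0.676% of all promoters. The motifs as searched share no overlap within this window.
Herpud1: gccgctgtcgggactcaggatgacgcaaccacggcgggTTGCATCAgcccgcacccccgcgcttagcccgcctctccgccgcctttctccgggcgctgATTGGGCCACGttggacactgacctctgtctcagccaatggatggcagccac

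Herpud1 had 253, 288 and 177 CPM in Healthy, 298, 270.2 and 281 CPM in PanIN and 305, 327 and 343 CPM in Tumor. The Tumor libraries were above all PanIN and all Healthy libraries, and it was the only gene of the 10 to lie apart in Tumor against PanIN, where 8.33% of all genes lay apart in that direction and 7.26% in the other. Its log2 fold change was 0.44 in Tumor against Healthy (SE 0.24, 95% interval -0.07 to 0.95, adjusted p = 0.356) and 0.20 in Tumor against PanIN (SE 0.23, adjusted p = 1), a value that was -0.11 on log2(TPM + 1). On that scale the median of the 15708 genes kept was -0.30 in Tumor against PanIN. In TPM, Tumor stood at 122, 145 and 182 and Healthy at 122, 117 and 64.6, with the lowest Tumor library just below the highest Healthy library. The antisense gene Gm15890 overlaps the start of Herpud1 by 535 bases and had 31.0 to 179 counts per library, beside 8716 or more for Herpud1; the use of strand in quantification was not given.

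In the PERK arm, Atf4 encodes the transcription factor whose translation the integrated stress response favours. Atf4 had 135, 115 and 82.7 CPM in Healthy, 169, 121 and 139 CPM in PanIN and 166, 179 and 185 CPM in Tumor. All 3 Tumor libraries lay above all 3 Healthy libraries, and PanIN lay between and overlapped both. Its mean was 1.60 times as high in Tumor as in Healthy by the fit, a log2 fold change of 0.67 (SE 0.24, 95% interval 0.16 to 1.19, adjusted p = 0.179). The range was 0.51 to 0.84 with 1 library left out, lowest without Healthy 3, and 0.39 without Healthy 2 and Healthy 3, a setting in which Healthy 1 is assumed to vary like the other groups. On log2(TPM + 1) it was 0.44, and the groups overlapped in TPM, with 44.1, 52.2 and 69.4 in Tumor and 50.7, 38.1 and 32.7 in Healthy. Atf4 was at 0.37 in PanIN against Healthy (SE 0.24) and 0.31 in Tumor against PanIN (SE 0.24). The last value was -0.17 on log2(TPM + 1), beside a median of -0.30 over the 15708 genes kept on that scale.

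Ddit3 encodes CHOP, the transcription factor tied to cell death in lasting ER stress. It had 12.5, 9.34 and 10.9 CPM in Healthy, 18.3, 13.0 and 10.9 CPM in PanIN and 21.9, 14.3 and 19.6 CPM in Tumor. All Tumor libraries lay above all Healthy libraries. The log2 fold change of Ddit3 in Tumor against Healthy was the highest among the 10 in that comparison, 0.77 (SE 0.29, 95% interval 0.14 to 1.40, adjusted p = 0.202), with a range of 0.64 to 0.93 when 1 library was left out. On log2(TPM + 1) it was 0.72, and in TPM Tumor stood at 14.99, 10.3 and 17.4 and Healthy at 10.4, 6.42 and 7.74, which overlapped. In PanIN against Healthy it was 0.36 (SE 0.29), and 0.13 without PanIN 1. The symbol also belongs to a second, shorter annotated gene at the same locus. That gene was at 0 counts in 8 libraries and at 7.7 counts in PanIN 1, and it is not included. In TPM it stood at 30.1 in PanIN 1, above the 15.8 TPM of the Ddit3 gene used here. The mean and the order of Ddit3 in TPM leave it out. Mars, encoded on the opposite strand, shares 68 bases with Ddit3 and had 1606 to 3612 counts per library.

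Trib3 encodes a pseudokinase induced by ATF4 and CHOP that feeds back on them. It rested on 11 to 130 counts per library and had 0.843, 1.78 and 1.58 CPM in Healthy, 0.297, 0.852 and 1.22 CPM in PanIN and 1.46, 0.618 and 2.23 CPM in Tumor. All 3 stages overlapped, and the lowest value was that of PanIN 1. The log2 fold change of Trib3 was 0.03 in Tumor against Healthy (SE 0.70, 95% interval -1.50 to 1.55), the widest interval of the 10 in that comparison. With -0.83 in PanIN against Healthy (SE 0.71, 95% interval -2.37 to 0.72, adjusted p = 0.75) and 0.85 in Tumor against PanIN (SE 0.71, 95% interval -0.69 to 2.40, adjusted p = 1), it had the value largest in size among the 10 in both comparisons, and both intervals took in 0.

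Beside the genes that lay apart in Tumor against Healthy, markers of dendritic cell maturation also stood higher, by the same fit. Of the 12 listed, 12 were positive in log2 fold change, at a median of 1.38. Among them 9 lay apart higher and 8 had an unadjusted p under 0.05. Of all genes tested, 43.5% were positive, 9.02% lay apart higher and 6.82% were higher at that limit. The maturation sum was 983 to 6900 CPM in Healthy, 3350 to 7900 CPM in PanIN and 7210 to 13500 CPM in Tumor, with 0 genes at 0. Plasma cells depend on Xbp1 and carry much ER chaperone RNA, and their markers summed to 272 to 681 CPM in Healthy, 486 to 1000 CPM in PanIN and 367 to 1550 CPM in Tumor, the last highest in Tumor 1. Much of the Healthy sum was Ighm, the IgM heavy chain, at 154 to 436 CPM there. Igkc, an immunoglobulin light chain, had 59.3, 38.5 and 26.3 CPM in Healthy, 159, 259 and 83.8 CPM in PanIN and 977, 351 and 45.3 CPM in Tumor. Of the 10 plasma cell markers, 9 were positive in Tumor against Healthy, at a median log2 fold change of 1.91. At an unadjusted p under 0.05 there were 5, all higher, beside 6.82% of all genes. Of the same markers 1 lay apart higher, beside 9.02% of all genes, and 0 were called, beside 0.0249%. In PanIN against Healthy 8 were positive, beside 42.5% of all genes, at a median of 0.86. There 4 lay apart higher, beside 7.4% of all genes. Tnfrsf17, a plasma cell receptor, was at 0 in Healthy 1 and Tumor 3. Without Tumor 1 the log2 fold changes in Tumor against Healthy were 0.72 for Atf4, 0.64 for Ddit3, 0.49 for Herpud1 and 0.42 for Xbp1. The part of maturation or of plasma cells in these values was not tested. One title code was shared by 1 library of each stage. Within it, Tumor minus Healthy in log2 CPM was 0.30 for Atf4, 0.80 for Ddit3, 0.27 for Herpud1 and 0.62 for Xbp1. Among the other libraries, 2 a stage, the values were 0.90, 0.73, 0.57 and 0.36 in the same order. Each of these other libraries has a title code of its own, so there stage and whatever the code marks cannot be told apart.

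The other genes of the pathway, 5 lists with 10 to 38 genes tested, gave 0 called in every comparison by edgeR with Benjamini-Hochberg adjustment. In the ER-associated degradation list, without Herpud1, 18 of 22 genes had a positive log2 fold change in Tumor against Healthy, where 43.5% of all genes did, with a median of 0.18; 8 lay apart higher and 1 lower, beside 9.02% and 9.06% of all genes, and at an unadjusted p under 0.05 there were 3 higher and 1 lower, beside 6.82% and 11%. Derl2, a channel component, had 67.3 ± 4.53 CPM in Tumor against 44.3 ± 7.73 CPM in Healthy (SD, n = 3 each; log2 fold change 0.61, adjusted p = 0.17). Ubxn4, an adaptor of the p97 extraction motor, had 132 ± 14.4 CPM in Tumor against 85.1 ± 17.4 CPM in Healthy, and Ube2j2, a ubiquitin-conjugating enzyme of the ER membrane, 75.6 ± 8.95 against 51.1 ± 7.13 CPM. Vcp, which encodes p97, had 893 ± 54.9 CPM in Tumor and 683 ± 112 CPM in Healthy, also apart. Edem3, a mannosidase that marks glycoproteins for degradation, was the gene lower in Tumor, at 17.6 ± 3.67 CPM against 27.4 ± 3.96 CPM in Healthy. In differences of mean log2 CPM, chosen after the data were seen, 19 of 22 were positive with all libraries and 12 of 22 without Healthy 3, the only library whose loss took the count below 18. Healthy 3 also held the most cDC2 marker RNA, 144 CPM against 35.9 to 64.6 CPM in the other 8 libraries, and its part in the count was not tested. In PanIN against Healthy 13 of 22 were positive, beside 42.5% of all genes, with Syvn1, the ubiquitin ligase HRD1, at 64.8 ± 17.9 CPM in PanIN against 39.3 ± 4.82 CPM in Healthy (adjusted p = 0.457).

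Of the 22 genes for ATF6 and the ER chaperones and foldases, 7 were positive in Tumor against Healthy, beside 43.5% of all genes. The list median was -0.19, beside -0.11 over all genes tested. The lowest p in the list was that of Hyou1, a nucleotide exchange factor of BiP. Hyou1 was at 143 ± 16.1 CPM in Tumor against 235 ± 133 CPM in Healthy (log2 fold change -0.71, adjusted p = 0.318). Hyou1 had 388 CPM in Healthy 2 and 154 and 162 CPM in the other Healthy libraries. The same library was the highest of the 9 for Hsp90b1, the ER Hsp90, at 1290 CPM, for Calr, calreticulin, at 1630 CPM, and for P4hb, protein disulfide isomerase, at 769 CPM. In differences of mean log2 CPM, 7 of 22 were positive with all libraries and 15 of 22 without Healthy 2, with medians of -0.10 and 0.18. For the 10 genes themselves these counts were 6 and 9, and for the secretory list of the IRE1 and XBP1 arm 16 and 24 of 25; of all genes tested, 47.3% and 47.7% were positive. The secretory list moved the other way without other libraries, to 11 of 25 without Healthy 1, 12 without Tumor 2 and 10 without Healthy 3, where its median was -0.07 beside 0.05 with all libraries. In that secretory list Sec11c, a signal peptidase subunit, had 157 ± 7.38 CPM in Tumor against 105 ± 21.1 CPM in Healthy and lay apart (log2 fold change 0.58, adjusted p = 0.192). Ssr2 and Sec61b, of the translocation site, had log2 fold changes of 0.60 and 0.61 in Tumor against PanIN and lay apart there, at adjusted p = 1.

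Among 38 other genes of PERK, eIF2 and the ATF4 and CHOP targets, 19 were positive and 19 negative in Tumor against Healthy, with a median of 0.00, and 6 had an unadjusted p under 0.05, all higher, beside 6.82% of all genes higher and 11% lower. They included Nfe2l2, the antioxidant regulator NRF2, at 53.0 ± 10.1 CPM in Tumor against 30.2 ± 9.85 CPM in Healthy. Also among them was Slc3a2, the heavy chain of amino acid transporters, at 151 ± 39.6 against 98.2 ± 20.4 CPM. Another was Mthfd2, a mitochondrial folate enzyme, at 305 ± 48.1 against 179 ± 84.9 CPM, for which the groups overlapped. Of the 19 negative genes, Asns had the lowest unadjusted p, at a log2 fold change of -1.02. Asns had 6.6, 4.67 and 13.2 CPM in Healthy and 3.15, 5.92 and 3.01 CPM in Tumor, which overlapped. Vldlr had 7.41 ± 1.06 CPM in Tumor against 14.6 ± 10.4 CPM in Healthy (log2 fold change -0.98), and the groups overlapped. Ppp1r15a, which encodes GADD34 and returns eIF2 to its active state, varied within each stage, with 210, 74.6 and 70.9 CPM in Healthy, 257, 91.0 and 104 CPM in PanIN and 252, 152 and 272 CPM in Tumor. Of 10 reported RIDD substrates, 4 were positive and 6 negative in Tumor against Healthy, with a median of -0.33. Of all genes tested, 43.5% were positive, with a median of -0.11. In that comparison 1 of them lay apart higher and 1 lower, beside 9.02% and 9.06% of all genes. Tapbp, tapasin, the MHC class I loading factor and a substrate described in cDC1, had 1040 ± 129 CPM in Tumor against 642 ± 218 CPM in Healthy and lay apart higher (adjusted p = 0.256). Hgsnat had 14.7, 13.2 and 14.2 CPM in Tumor against 14.8, 29.3 and 15.6 CPM in Healthy and lay apart lower. Bloc1s1, the most widely used reporter of RIDD, had 58.7 ± 9.0 CPM in Tumor and 36.6 ± 6.45 CPM in PanIN and lay apart there (adjusted p = 1). Col6a1, a collagen chain, and Pmp22, a myelin protein gene, were both negative and reached at most 13.8 and 3.8 CPM, both in Healthy 3. Pdgfrb and Sparc were also negative and highest in Healthy 3, at 9.58 and 59.9 CPM. The other negative substrates were highest in Healthy 2. In differences of mean log2 CPM, the list median was -0.39 with all libraries, -0.22 without Healthy 3 and -0.36 without Healthy 2. It was -0.19 without both of these and -0.81 without Tumor 1.

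**Figure D4:**
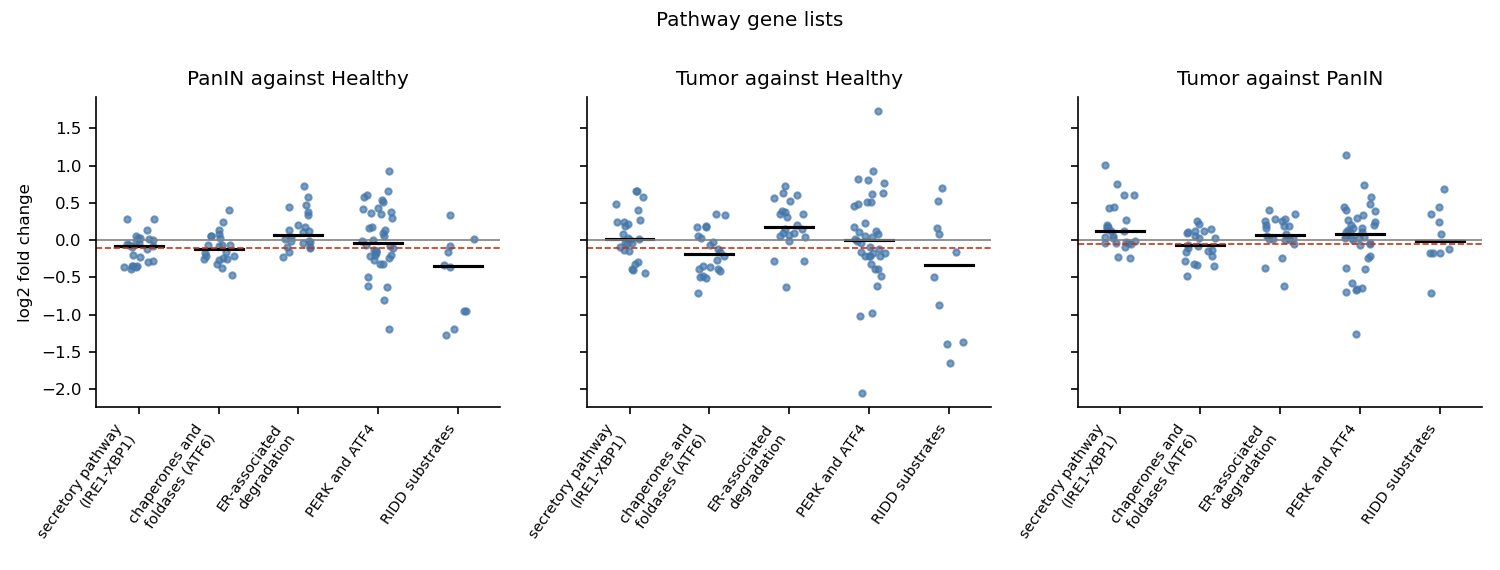
log2 fold changes from the edgeR fit of every tested gene (points) in 5 pathway lists for PanIN against Healthy, Tumor against Healthy and Tumor against PanIN, with list medians as black bars and the median of all genes tested as a dashed line; positive values are higher in the stage named first. In Tumor against Healthy the median is 0.18 for ER-associated degradation and -0.19 for the ATF6 list, beside -0.11 over all genes tested.

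The 10 genes formed 45 pairs, whose correlations over the 9 libraries in log2 CPM had a median r of 0.315, with 35 positive and 10 negative. After Benjamini-Hochberg adjustment over the 45, 0 passed for Pearson's r or Spearman's rho. Herpud1 and Atf4 went together most closely, with r = 0.91 (exact permutation p = 0.00117, adjusted p = 0.0528) and rho = 0.87 (adjusted p = 0.203). Without Healthy 3 and Tumor 3, the libraries farthest from the median of Herpud1, r was 0.71. It was 0.93 in the 6 libraries that do not carry the shared title code. In each pair given here the 2 libraries left out were chosen by the gene named first alone. Hspa5 and Sdf2l1 had r = 0.835 (adjusted p = 0.161) and rho = 0.77, and r = 0.515 without Healthy 2 and PanIN 3. Atf4 and Ddit3 had r = 0.74 (adjusted p = 0.188) and rho = 0.73, and r = 0.76 without the 2 libraries farthest from the median of Atf4. Ern1 and Ddit3 had the lowest r, -0.67 (adjusted p = 0.246), with rho = -0.63, and -0.58 without Healthy 2 and PanIN 2. The libraries span the 3 stages, and 3 libraries are too few for a value within a stage.

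**Figure D5:**
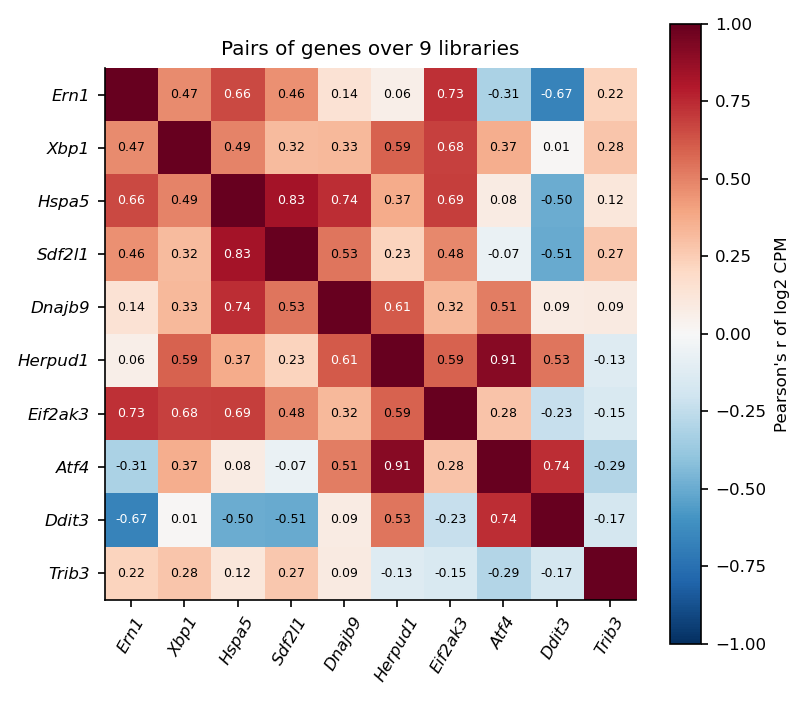
Pearson's r of log2 CPM over the 9 libraries for each pair of the 10 genes, with red for positive and blue for negative values. Among Hspa5, Sdf2l1, Dnajb9, Ern1 and Eif2ak3 every r is above 0, from 0.141 to 0.835. Healthy 2 is the highest library for each of them but Dnajb9. Xbp1 is also positive with each of these genes, from 0.315 to 0.681. So is Herpud1, from 0.0586 to 0.615. Atf4 is most positive with Herpud1 and Ddit3 and near 0 with Hspa5 and Sdf2l1. Its r with Hspa5 is 0.69 without Healthy 2 and PanIN 3. Its r with Sdf2l1 is 0.21 without Healthy 2 and Tumor 2. After adjustment 0 of the 45 pairs pass.

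For 3 of the genes the most similar profiles were sought among 9157 protein-coding genes with a mean of at least 10 CPM, by Pearson's r of log2 CPM over the 9 libraries. For Xbp1 these were Acaa1a (r = 0.97), Ppan, Csprs, March7 and Cntrob, the last 4 at r = 0.96. For Hspa5 they were Msl3 (r = 0.97), Pde8a, Usp37, Mcfd2 and Dnttip2, and for Atf4 Ttc39a (r = 0.95), Klf6, Mvp, Adrm1 and Endod1. With 9 libraries and so many genes, high values occur among unrelated genes, and these are given as a description.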

How the data were processed

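RNA was sequenced from cDC1 of 9 libraries, 3 per stage. Extraction used a column kit for small samples and the library kit was directional, per the labels' protocols. The authors deposited estimated counts, not normalized, and TPM, summing to 1000000 per library, for each transcript. The submitters' processing notes name Salmon and mm10; version, settings, annotation and use of strand were not given there. The deposited file names mention another quantifier, so the tool is not settled.

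Of 136288 transcripts, 136176 matched GENCODE M21 (GRCm38) by identifier and were summed to genes and rounded; they held at least 99.963% of each library's counts. Genes passed filterByExpr (minimum count 10, minimum total 15). edgeR 4.0.16 (R 4.3.3) fitted 1 quasi-likelihood model over all libraries with stage as the only term, TMM factors of 0.83 to 1.19 and adjusted p under 0.05 as threshold. The common biological coefficient of variation came to 56.5%. No libraries agreed within sampling noise. Xbp1 shares and correlations used exact permutation tests, two-sided for correlations. Intervals cover the spread between libraries. The fit was tested on simulated counts.

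The genes and lists were chosen with earlier results of these data known. Besides the 10 genes, the text names, per list, called genes, those with the 3 smallest p-values per comparison and the 2 with the highest TPM, and gives not all of them. Asns and Hgsnat are named outside that rule. Alternatives used DESeq2 1.42.0, limma 3.58.1 (voom with sample weights, and trend on TPM), RLE factors, other filters, a term for the title code and fewer libraries. Tables and figures used Python 3.11.15, pandas 2.3.3 and matplotlib 3.10.9. Promoter sequences are RefSeq's; protein sequences were not used here.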

Additional observations from a re-analysis of the deposited data

How the results depend on the processing

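No paired analysis was possible because the labels carry no replicate numbers and a single title code is shared between stages, by 1 library of each; a term for that code was fitted, and its values are given with the other alternatives. Of the 42 fold changes followed, for the 10 genes and the 4 Xbp1 transcripts in 3 comparisons, 25 kept their sign under every alternative tried and 17 did not, none of them called and none above 0.461 in size. Of 738 values under alternatives 679 kept sign and side of the threshold, 58 changed sign and 1 passed the threshold, Xbp1 in PanIN against Healthy by voom with sample weights, so that 1 gene of the 10 was called there and 1 in the test of any difference.

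The number of all genes called moved with the tool. For Tumor against Healthy, DESeq2 gave 1629, voom with sample weights 1986, no filter on low counts 1041, log2(TPM + 0.1) 14 and 50 counts in 3 libraries 3. For PanIN against Healthy these were 206, 3409, 123 and 12, with 13 on log2(TPM + 1), 14 on that scale with no filter and 3 without Healthy 2 and Healthy 3. For Tumor against PanIN, DESeq2 gave 37, no filter on low counts 33, log2(TPM + 0.1) 10, log2(TPM + 1) 5 and 7 with no filter, 50 counts in 3 libraries 1, the title code term 1 and only the 6 libraries compared 0. With 1 library left out the counts ranged from 2 to 2177 for Tumor against Healthy, highest without Healthy 2, from 0 to 6 for PanIN against Healthy and from 1 to 7 for Tumor against PanIN; those of the 10 genes stayed at 0. Adjusted p of the Xbp1 shares then ranged from 0.105 to 0.464 for Xbp1-201, Xbp1-202 and Xbp1-203 and from 0.0857 to 0.471 for Xbp1-204.

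These values had the other sign, and the cause was not tested. On log2(TPM + 1), with or without the filter, and on log2(TPM + 0.1), Tumor against PanIN gave -0.168 and -0.171 for Atf4, -0.385 and -0.411 for Dnajb9, -0.108 for Herpud1 on both and -0.164 and -0.166 for Sdf2l1. The median of all genes there was -0.30 on log2(TPM + 1) with the filter, -0.07 without it and -0.38 on log2(TPM + 0.1). On these scales Tumor against Healthy gave -0.128 and -0.137 for Dnajb9 and -0.189 and -0.221 for Eif2ak3. PanIN against Healthy gave 0.449 and 0.45 for Hspa5 on them. By voom with sample weights, PanIN against Healthy gave -0.002 for Atf4, -0.051 for Dnajb9 and 0.09 for Hspa5, and Tumor against Healthy 0.044 for Hspa5 and 0.102 for Sdf2l1. Without Healthy 2 and Healthy 3, Hspa5 had 0.248 for PanIN over Healthy and 0.074 for Tumor over Healthy, and Sdf2l1 at 0.011 and 0.173. Xbp1 in Tumor against PanIN was 0.01 by DESeq2, 0.011 with RLE, 0.015 with no filter on low counts and 0.03 with the title code term.

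With 1 library left out, Tumor against Healthy ranged from -0.024 to 0.302 for Dnajb9, -0.159 to 0.267 for Eif2ak3, -0.366 to 0.191 for Hspa5, -0.483 to 0.199 for Sdf2l1 and -0.435 to 0.392 for Trib3. PanIN against Healthy ranged from -0.028 to 0.244 for Dnajb9, -0.124 to 0.533 for Ern1, -0.222 to 0.364 for Hspa5, -0.646 to 0.036 for Sdf2l1 and -0.041 to 0.421 for Xbp1-201. Tumor against PanIN ranged from -0.106 to 0.172 for Dnajb9, -0.302 to 0.027 for Hspa5 and -0.209 to 0.216 for Xbp1. Leaving out Healthy 2 turned Hspa5 and Sdf2l1 positive in both comparisons with Healthy. Trib3 did not pass the filter of 1 TPM in 3 libraries and has no value there. The 95% intervals of the fold changes set which differences these libraries can show, and a p that misses the threshold does not show that stages were alike.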
